A study of Homo sapiens with 6 samples.

Results

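The genes of the collagen chains were described in HT1080, an established human fibrosarcoma cell line. A chain was taken as any protein-coding gene whose symbol is COL, a number, A and a number. This gave 44 chains of 28 collagen types among 58735 genes in the table, 19951 of them protein coding. RNA was compared between 3 libraries from GPR56 knockout (KO) cells and 3 libraries from wild-type (WT) cells. The KO cells were made with CRISPR-Cas9, and their target was ADGRG1, which encodes the adhesion G protein-coupled receptor GPR56. Cells of both genotypes were grown in DMEM with fetal bovine serum, and the sample names of both carry the solvent DMSO without a dose or time. The labels give neither the number of KO clones nor whether samples of a genotype were separate cultures. The p-values here set the difference between genotypes only against the spread of these samples within a genotype, and that spread may be technical. The question put to the libraries was which mRNAs differ when GPR56 is lost.

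Collagens are trimers of chains that wind into a triple helix after their prolines and lysines have been hydroxylated in the endoplasmic reticulum. Fibrillar collagens form the ropes of connective tissue, type IV collagen forms the sheet of basement membranes, type VI collagen forms beaded filaments around cells, and other types decorate fibrils, anchor membranes or span the plasma membrane. A chain without its partners usually stays in the cell or is degraded, so the balance of chains matters for secretion. Collagen is also linked to GPR56 itself, since type III collagen is a known ligand of this receptor in the developing brain. HT1080 cells are known for basement membrane collagen and for collagen-degrading proteases.

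Each library held 16955111 to 17276269 reads in KO cells and 16410352 to 16461752 reads in WT cells, recovered from the deposited FPKM values (reads scaled to the length of the gene and to the size of the library). In a gene of 1 kb, 1 read was worth 0.0581 to 0.0602 FPKM. ADGRG1 was at 2.68, 2.54 and 2.58 FPKM in KO cells, against 6.61, 6.07 and 6.87 FPKM in WT cells, so its mRNA was lower in all 3 KO libraries and still present (log2 fold change −1.06, limma adjusted p = 6.24e-05). The mesenchymal markers VIM, FN1, CDH2, TGFBI and S100A4 were all above 1 FPKM, with summed levels of 403.9 to 470.7 FPKM in KO and 392.1 to 436.8 FPKM in WT libraries. VIM made up most of these sums, and VIM and CDH2 had a limma adjusted p of 0.405 and 0.134. TGFBI averaged 22.6 FPKM in KO and 8.38 FPKM in WT cells, and S100A4 10.2 and 3.42 FPKM (limma adjusted p = 2.98e-05 and 0.00189). FN1 was higher in KO cells too (limma adjusted p = 0.000841). Of 5 markers of tissue fibroblasts, DCN and LUM had 0 reads in all 6 libraries, and PDGFRB alone exceeded 1 FPKM, with a mean of 3.60 FPKM in KO and 0.611 FPKM in WT cells. The summed levels of 4 epithelial markers reached at most 0.0231 FPKM in KO and 0.0235 FPKM in WT libraries, and those of 3 blood markers 0.135 and 0.0461 FPKM. The 3 endothelial markers summed to 1.37 to 1.57 FPKM in KO and 0.289 to 0.379 FPKM in WT libraries, most of it PECAM1, and the part of other cells in the results was not tested. In libraries of bulk RNA, fewer cells that express a gene and less of its RNA per cell cannot be told apart.

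HT1080 cells transcribed a narrow set of collagens, led by types VI, IV, V and XIII. The 7 highest chains were COL6A1, COL6A2, COL6A3, COL4A1, COL4A2, COL5A1 and COL13A1, and they held 93.97% to 94.2% of the summed collagen FPKM in KO and 92.35% to 92.84% in WT libraries. Of the 44 chains, 13 had a mean of at least 1 FPKM over the 6 libraries and were tested, 13 lay below that level but reached 0.1 FPKM in some library, and 18 stayed under 0.1 FPKM in all 6 and are called silent here. COL7A1, with a mean of 1.43 FPKM, was the lowest tested chain, and COL4A5 and COL16A1, with 0.82 FPKM each, were just below the filter.

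Among the 13 tested chains, 6 were higher and 4 lower in KO cells, and 3 missed the threshold of 0.05 on the limma adjusted p. The higher chains were COL6A2, COL6A1, COL4A1, COL13A1, COL22A1 and COL7A1, and the lower chains were COL6A3, COL12A1, COL27A1 and COL17A1. This has to be read against a broad difference between the cell populations, in which 43.4% of the 12000 genes tested were called, 21% as higher and 22.4% as lower in KO cells. The libraries of the genotypes did not overlap for 10 of the 13 chains, against 54.7% of all genes tested. The median log2 fold change of the 13 chains was 0.42 and that of all genes tested −0.0055. COL22A1 passed the level filter only through its level in KO cells, so these counts describe the tested chains and not all 44.

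Several chains shared features of the libraries. Replicate 3 had the lowest level of the KO libraries for 12 of the 13 tested chains, against 31.64% of all genes tested, and replicate 2 had the lowest level of the WT libraries for all 13, against 37.25%. Gene levels also followed GC content, with Spearman correlations across 11992 genes of 0.46, 0.44 and 0.23 in KO and −0.40, −0.62 and −0.01 in WT libraries between GC content and the deviation from the gene's mean. Of the 13 tested chains, 12 lay above the median GC content of all tested genes, with a median of 60.25% against 48.28%. After removal of this trend with that of length, 6 chains were called higher and 6 lower, against 20.7% and 22.9% of all genes tested, and the log2 fold changes of the 6 higher chains shrank.

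**Figure D1:**
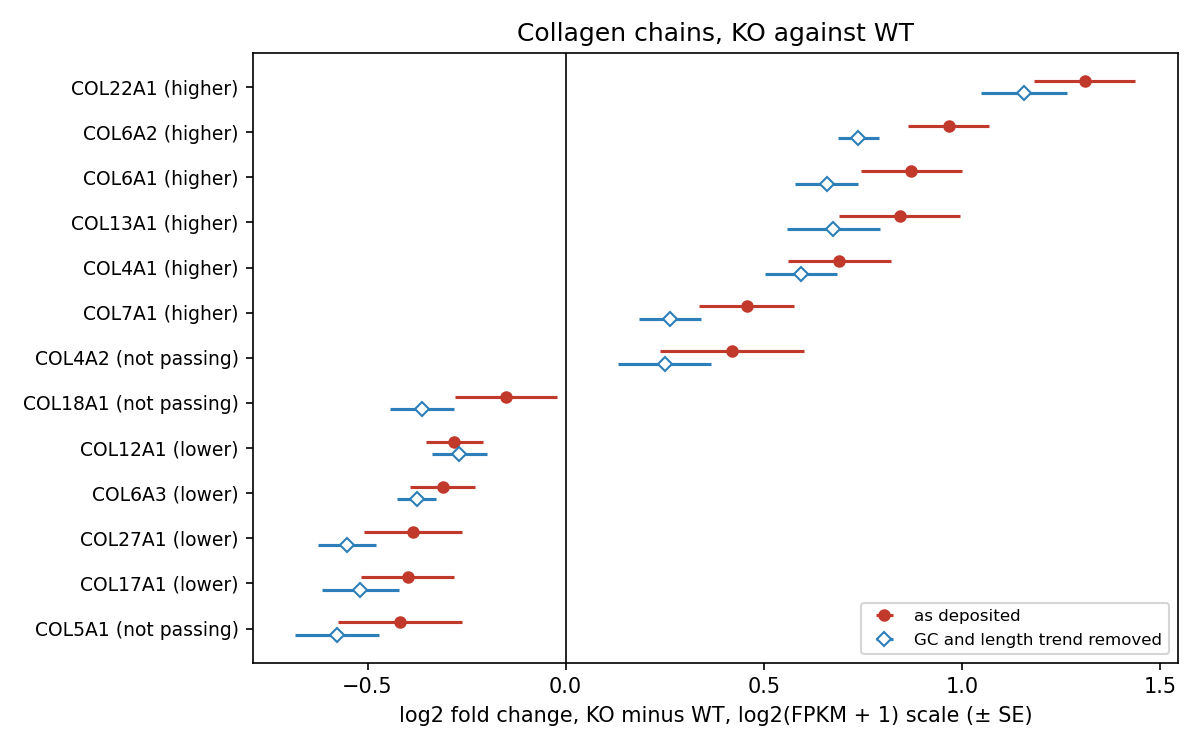
Log2 fold change of KO minus WT on the log2(FPKM + 1) scale for the 13 tested chains, as points with standard errors, from the deposited values (filled) and after removal of the GC and length trend (open). COL22A1 has the largest increase (1.31), COL6A2 and COL6A1 follow, and COL5A1, COL17A1 and COL27A1 lie lowest with values near −0.4 that move further down in the corrected fit.

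Type VI collagen, whose α1, α2 and α3 chains assemble into a joint trimer and whose mutations cause Bethlem and Ullrich muscular dystrophies, had the highest summed FPKM of any class by the deposited gene length, and its chains moved in opposite directions. COL6A2 (ENSG00000142173, plus strand, GRCh38 chr21:46098097-46132849) was at 67.7, 65.1 and 64.0 FPKM in KO libraries and at 34.0, 28.2 and 37.6 FPKM in WT libraries. COL6A1 (ENSG00000142156, plus strand, chr21:45981737-46005050) was at 56.2, 49.9 and 46.2 FPKM in KO libraries and at 26.9, 23.1 and 32.3 FPKM in WT libraries. All 3 KO libraries were above all 3 WT libraries for both of these neighbouring genes. The mean of COL6A2 was 65.6 ± 1.88 FPKM in KO and 33.3 ± 4.75 FPKM in WT cells (SD, n = 3 each), 1.97 times higher in KO, and its log2 fold change was 0.97 (SE 0.10; adjusted p = 0.000495 in limma). COL6A1 averaged 50.8 ± 5.06 FPKM in KO and 27.4 ± 4.62 FPKM in WT cells, and its log2 fold change was 0.87 (SE 0.13; adjusted p = 0.00182 in limma). After the GC and length correction the increases were 0.74 for COL6A2 and 0.66 for COL6A1, and both remained past the threshold.

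COL6A3, the long chain that carries most of the globular domains of the trimer, moved the other way. COL6A3 (ENSG00000163359, minus strand, chr2:237324003-237414375) was at 50.1, 49.2 and 45.7 FPKM in KO libraries and at 62.3, 54.0 and 64.5 FPKM in WT libraries. The groups did not overlap, and the decrease was smaller than the increases of its partners. Its means were 48.3 ± 2.29 FPKM in KO and 60.3 ± 5.54 FPKM in WT cells (SD, n = 3 each), and its log2 fold change was −0.31 (SE 0.08; adjusted p = 0.0198 in limma). The limma call was lost without KO 2 (adjusted p = 0.057), KO 3 (0.0655) or WT 1 (0.0777), and in the fit without a level filter (0.051). Per principal transcript length, the means of COL4A1 and COL4A2 together exceeded those of the 3 main chains of type VI in both genotypes, but in WT 2 the order was reversed. The other chains of type VI were low: COL6A5 had 28 reads in KO and 20 in WT cells over 3 libraries each, and COL6A6 had 8 and 4.

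The shift between partners showed in the ratio of COL6A3 to COL6A1 within a library, on the FPKM scale. That ratio was 0.891, 0.985 and 0.990 in KO libraries and 2.32, 2.34 and 1.996 in WT libraries, with means of 0.956 ± 0.056 and 2.22 ± 0.191 (SD, n = 3 each). In WT cells the α3 chain exceeded the α1 chain in every library, and in KO cells it was slightly below it by the deposited length. The ratio of COL6A2 to COL6A1 was 1.204, 1.31 and 1.39 in KO and 1.26, 1.22 and 1.17 in WT libraries, and these ranges overlapped. With 3 libraries against 3, the smallest two-sided p of an exact permutation test is 0.1. The exact permutation p was 0.1 for COL6A3 over COL6A1 and 0.3 for COL6A2 over COL6A1, or 0.15 and 0.3 after adjustment over the 3 ratios tested. The level of a ratio depends on the length that is used: with the length of the principal transcript in place of the merged exons, COL6A3 over COL6A1 was 1.38 in KO and 3.21 in WT cells, above 1 in both.

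**Figure D2:**
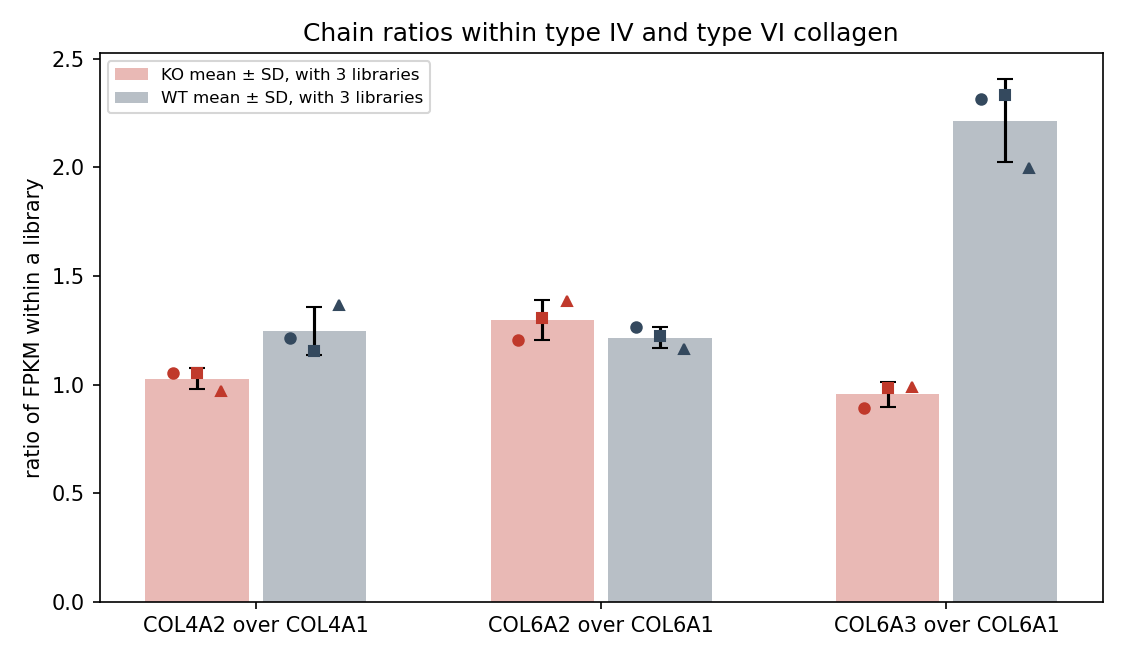
Ratio of FPKM between partner chains within each library, with bars for the mean, whiskers for the SD and points for the 3 libraries of KO (left of each pair) and WT. COL6A3 over COL6A1 separates the genotypes, at 0.956 in KO and 2.22 in WT cells, while COL6A2 over COL6A1 overlaps.

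The promoters of the higher chain and the lower chain with the most FPKM by the deposited length (per principal transcript length COL4A1, whose promoter is shown further on, exceeded COL6A2) are printed because both chains belong to the same trimer and moved apart. The sequences are RefSeq windows on GRCh38.p14 from 250 bases before to 50 bases after the RefSeq start, 5′ to 3′ on the strand of the gene. COL6A2 is from chr21:46097862-46098161 on the plus strand and COL6A3 from chr2:237414115-237414414 on the minus strand. RefSeq starts need not equal the gene starts given above. For COL6A3 the gene start given above, position 237414375, lies inside the window and upstream of the RefSeq start. Capitals mark matches on either strand to the letters TATAAA, a form of the TATA box, to the letters CCAAT, or to the letters GGGCGG, a form of the GC box.
COL6A2: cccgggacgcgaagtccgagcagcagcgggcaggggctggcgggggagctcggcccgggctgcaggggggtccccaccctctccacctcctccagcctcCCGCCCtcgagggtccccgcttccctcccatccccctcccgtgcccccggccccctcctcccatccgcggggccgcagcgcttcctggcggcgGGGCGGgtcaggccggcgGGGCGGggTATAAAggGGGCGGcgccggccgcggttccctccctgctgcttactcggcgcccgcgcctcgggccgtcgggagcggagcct
COL6A3: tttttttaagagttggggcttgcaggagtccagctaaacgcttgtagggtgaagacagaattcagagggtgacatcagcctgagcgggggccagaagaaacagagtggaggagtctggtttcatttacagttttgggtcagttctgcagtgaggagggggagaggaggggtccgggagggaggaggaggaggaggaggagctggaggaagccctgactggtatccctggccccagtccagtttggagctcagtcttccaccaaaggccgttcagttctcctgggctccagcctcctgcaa
The COL6A2 window held 1 TATAAA and 4 GGGCGG matches, and the COL6A3 window held none of the 3 motifs. Of 35116 promoter windows of this length, 11.53% held TATAAA, 34.61% held CCAAT and 44.95% held GGGCGG. GC content was 79.33% in the COL6A2 window and 56.33% in the COL6A3 window, and the ratio of observed to expected CpG was 0.767 and 0.1835, against medians of 58.67% and 0.5791 over all windows. A match is a description of letters and not of a bound site.

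Type IV collagen, the network of basement membranes, was transcribed mainly as its common α1 and α2 chains, and the increase passed the test for α1. COL4A1 (ENSG00000187498, minus strand, chr13:110148963-110307233) was at 63.6, 57.9 and 51.5 FPKM in KO libraries and at 37.4, 29.1 and 40.1 FPKM in WT libraries, with no overlap. Its means were 57.7 ± 6.07 FPKM in KO and 35.5 ± 5.69 FPKM in WT cells (SD, n = 3 each), and its log2 fold change was 0.69 (SE 0.13; adjusted p = 0.00517 in limma). COL4A2 (ENSG00000134871, plus strand, chr13:110305812-110513209) was at 67.0, 61.1 and 49.96 FPKM in KO libraries and at 45.5, 33.7 and 54.8 FPKM in WT libraries. The groups overlapped for COL4A2, since KO 3 lay below WT 3. Its log2 fold change was 0.42 (SE 0.18) and did not pass (limma adjusted p = 0.102), although it passed without WT 3 (adjusted p = 0.0332). Of the other chains of type IV, COL4A5 had 570 reads in KO and 413 in WT cells, COL4A6 had 29 and 50, and COL4A3 and COL4A4, the chains of the kidney filter that are mutated in Alport syndrome, were silent.

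COL4A1 and COL4A2 are read in opposite directions from a shared promoter, which is why both windows are shown. Their RefSeq starts lie 127 bases apart, at positions 110307157 (COL4A1) and 110307284 (COL4A2) of chromosome 13, and the windows share 226 bases, chr13:110307108-110307333, that are identical when 1 of them is reversed and complemented. The COL4A1 window is chr13:110307108-110307407 on the minus strand and the COL4A2 window chr13:110307034-110307333 on the plus strand of GRCh38.p14, with capitals as above.
COL4A1: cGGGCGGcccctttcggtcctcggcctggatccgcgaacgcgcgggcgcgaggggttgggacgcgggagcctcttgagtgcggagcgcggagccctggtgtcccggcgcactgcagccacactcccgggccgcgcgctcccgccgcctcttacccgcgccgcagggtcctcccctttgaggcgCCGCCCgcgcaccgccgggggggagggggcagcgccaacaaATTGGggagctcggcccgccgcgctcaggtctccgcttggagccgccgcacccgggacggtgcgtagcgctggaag
COL4A2: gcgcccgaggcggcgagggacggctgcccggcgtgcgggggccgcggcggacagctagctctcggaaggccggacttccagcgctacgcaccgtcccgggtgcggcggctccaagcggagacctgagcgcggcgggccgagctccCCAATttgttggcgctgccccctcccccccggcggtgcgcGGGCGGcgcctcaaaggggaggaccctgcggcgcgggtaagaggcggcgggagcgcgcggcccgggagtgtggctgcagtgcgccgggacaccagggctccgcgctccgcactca
Each window held 1 CCAAT match, read as ATTGG on the strand of COL4A1. GGGCGG matched 2 times in the COL4A1 window and 1 time in the COL4A2 window, and TATAAA matched in neither. The ratio of COL4A2 to COL4A1 within a library was 1.05, 1.06 and 0.971 in KO and 1.22, 1.16 and 1.37 in WT libraries. All KO ratios were below all WT ratios, with means of 1.03 ± 0.0484 and 1.25 ± 0.110 (SD, n = 3 each, exact permutation p = 0.1, adjusted over 3 ratios 0.15). Many genes around this locus were higher too: of 37 tested genes within 5 Mb of COL4A1, 21 were called higher and 1 lower in KO cells (21% and 22.4% of all genes tested), with a median log2 fold change of 0.39. No other tested chain outside this locus had a positive median of that size among its neighbours, where the medians ran from −0.35 to 0.10. Whether the local shift has a part in the increase of COL4A1 was not tested.

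Chains of other classes rose as well. COL13A1, a transmembrane collagen that is concentrated at neuromuscular junctions, was at 37.1, 30.5 and 27.9 FPKM in KO libraries and at 18.5, 13.8 and 19.97 FPKM in WT libraries (ENSG00000197467, plus strand, chr10:69801867-69964275). It was 1.83 times higher in KO cells, and its log2 fold change was 0.84 (SE 0.15; adjusted p = 0.0044 in limma). The level of COL13A1 in the lowest KO library exceeded that in the highest WT library, and it was the only transmembrane collagen above 10 FPKM in either genotype.

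COL22A1, a fibril-associated collagen of the junction between muscle and tendon, showed the largest change among tested chains. It was at 3.74, 2.95 and 2.99 FPKM in KO libraries and at 0.921, 0.468 and 0.737 FPKM in WT libraries (ENSG00000169436, minus strand, chr8:138588235-138914006). The means of 3.23 ± 0.443 FPKM in KO and 0.709 ± 0.228 FPKM in WT cells (SD, n = 3 each) differed 4.55-fold, more than the log2 fold change of 1.31 (SE 0.13; adjusted p = 0.00035 in limma) because the pseudocount of 1 compresses low levels. Only 3.29% of all genes tested changed by at least 2-fold on that scale. COL22A1 was in the tested set only through its level in KO cells. COL7A1, the chain of the anchoring fibrils that tie epidermis to dermis and are lost in dystrophic epidermolysis bullosa, was at 1.86, 1.95 and 1.62 FPKM in KO libraries and at 1.10, 0.771 and 1.30 FPKM in WT libraries (ENSG00000114270, minus strand, chr3:48564073-48595267). The KO libraries all lay above the WT libraries. COL7A1 had a log2 fold change of 0.46 (SE 0.12; adjusted p = 0.019 in limma), a call that was lost without KO 1 (adjusted p = 0.0581) or KO 2 (0.0679) and in the fit without a filter (0.0658). Corrected for GC content and length, its log2 fold change was 0.26 (limma adjusted p = 0.0326).

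The lower chains outside type VI differed by less than most of the higher ones. COL12A1, a long fibril-associated chain that binds the surface of type I fibrils, was at 3.78, 3.94 and 3.35 FPKM in KO libraries and at 4.72, 4.51 and 4.85 FPKM in WT libraries (ENSG00000111799, minus strand, chr6:75084326-75206051). COL27A1, a fibrillar chain known from cartilage, was at 3.93, 4.20 and 3.39 FPKM in KO libraries and at 5.67, 4.29 and 6.11 FPKM in WT libraries (ENSG00000196739, plus strand, chr9:114155560-114312511). COL17A1, a transmembrane collagen of the hemidesmosomes of basal keratinocytes, was at 2.42, 2.70 and 1.93 FPKM in KO libraries and at 3.76, 2.88 and 3.59 FPKM in WT libraries (ENSG00000065618, minus strand, chr10:104031286-104085957). Every KO library was below every WT library for the 3 chains, but KO 2 and WT 2 came within 0.1 FPKM of each other for COL27A1.

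The limma log2 fold changes were −0.28 (SE 0.07, adjusted p = 0.0177) for COL12A1, −0.39 (SE 0.12, adjusted p = 0.0401) for COL27A1 and −0.40 (SE 0.12, adjusted p = 0.0299) for COL17A1. Each of these calls changed when a single library was left out. The limma call of COL12A1 was lost without KO 3 (adjusted p = 0.0554) or WT 1 (0.0625), and that of COL17A1 without KO 1 (0.0638), KO 3 (0.0802), WT 1 (0.102) or WT 3 (0.075). For COL27A1 it was lost without any 1 library other than WT 2, with adjusted p of 0.0592 to 0.121. Around COL12A1, 0 of 23 tested genes within 5 Mb were higher and 10 were lower in KO cells (21% and 22.4% of all genes tested), with a median log2 fold change of −0.35, and the part of this local shift was not tested.

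COL5A1 and COL18A1 did not pass the test. COL5A1, the main chain of type V collagen, which starts and limits the growth of type I fibrils and is mutated in classic Ehlers-Danlos syndrome, was at 36.2, 34.6 and 28.3 FPKM in KO libraries and at 47.6, 35.03 and 51.9 FPKM in WT libraries (ENSG00000130635, plus strand, chr9:134641774-134844843). WT 2 lay between the KO libraries, and the log2 fold change was −0.42 (SE 0.16, limma adjusted p = 0.0663). It passed without WT 2 (adjusted p = 0.0094) and once GC content and length were corrected for (log2 fold change −0.58, adjusted p = 0.00479). COL18A1, the source of endostatin, was at 2.49, 2.35 and 2.09 FPKM in KO libraries and at 2.52, 2.17 and 3.42 FPKM in WT libraries, which overlap (ENSG00000182871, plus strand, chr21:45405137-45513720; log2 fold change −0.15, SE 0.13, limma adjusted p = 0.388). After the correction COL18A1 had a log2 fold change of −0.36 (limma adjusted p = 0.0111). Exons of SLC19A1 on the opposite strand overlap 16.4% of the exonic bases of COL18A1 at a mean of 11.7 FPKM, and with no strand setting stated the reads of that overlap cannot be assigned with certainty.

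**Figure D3:**
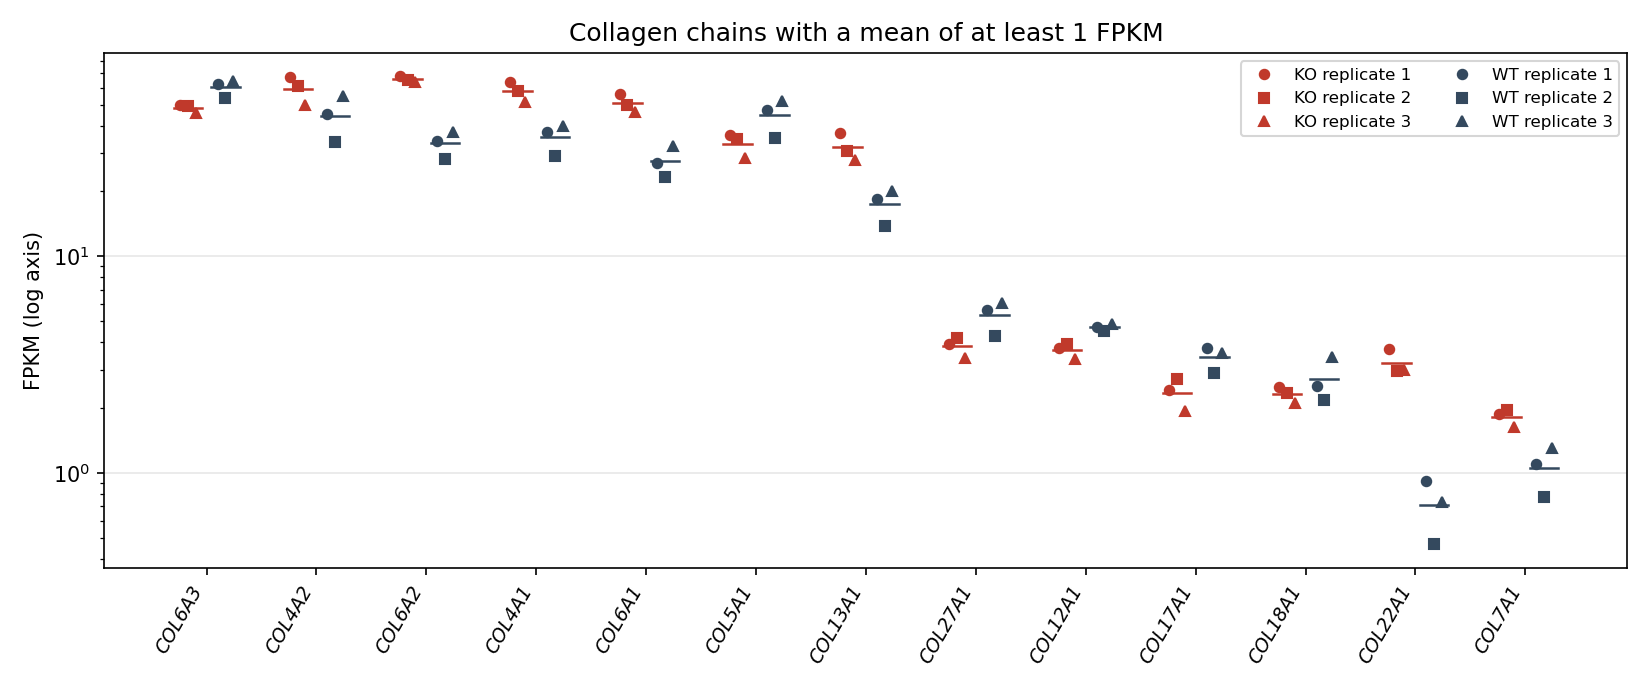
FPKM (log axis) of the 13 tested chains in each library, with KO (red) left of WT (dark) for each chain, 1 marker shape per replicate number and a line at the mean. The genotypes separate for all chains but COL4A2, COL5A1 and COL18A1, and WT 2 (dark square) is the lowest WT library for every chain.

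The order of the chains differed between genotypes as a result. By mean FPKM the order in KO cells was COL6A2 (65.6), COL4A2 (59.4), COL4A1 (57.7), COL6A1 (50.8), COL6A3 (48.3), COL5A1 (33.0) and COL13A1 (31.9). In WT cells it was COL6A3 (60.3), COL5A1 (44.9), COL4A2 (44.6), COL4A1 (35.5), COL6A2 (33.3), COL6A1 (27.4) and COL13A1 (17.4). Several neighbours lay within each other's spread, such as COL4A2 and COL4A1 in KO cells or COL5A1 and COL4A2 in WT cells. The deposited length counts every annotated exon, and per length of the principal transcript COL4A2 was highest in both genotypes, at 176.3 ± 25.8 in KO and 132.6 ± 31.5 in WT cells (SD, n = 3 each), and COL6A3 stood behind COL4A2, COL4A1 and COL6A2 in KO cells and behind COL4A2 alone in WT cells.

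Summed over the 44 chains, collagen reached 401.2, 370.7 and 332.9 FPKM in KO libraries and 293.8, 234.9 and 324.4 FPKM in WT libraries. Each KO library was above each WT library, with means of 368.3 ± 34.2 FPKM in KO and 284.4 ± 45.5 FPKM in WT cells (SD, n = 3 each), a ratio of 1.295 with the smallest p this design allows (two-sided exact permutation p = 0.1). As a share of all reads, the chains took 0.479%, 0.439% and 0.381% in KO and 0.397%, 0.312% and 0.429% in WT libraries, which overlap (exact permutation p = 0.4). Fibrillar chains held 10.4% ± 0.449 of the summed FPKM in KO and 17.8% ± 0.713 in WT cells (SD, n = 3 each), with no overlap between libraries. Most of this class was COL5A1, which did not pass the test, with 33.0 of 38.4 FPKM in KO and 44.9 of 50.8 FPKM in WT cells. The type IV network held 32.0% ± 1.09 in KO and 28.4% ± 1.21 in WT cells, and transmembrane chains 9.27% ± 0.510 and 7.31% ± 0.234, also without overlap. The type VI filament held 44.9% ± 1.79 and 42.8% ± 1.84, with overlap. These shares are descriptions with no test, and they add up to a whole, so a larger share of 1 class lowers the others.

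Type I collagen, the main collagen of skin, tendon and bone and the usual hallmark of fibroblasts, was nearly absent. COL1A1 was at 1.16, 0.764 and 1.07 FPKM in KO libraries and at 0.229, 0.177 and 0.30 FPKM in WT libraries, from 498 and 116 reads in all. Its mean was 4.23 times higher in KO cells, and every KO library exceeded every WT library. Below the level filter it entered only limma without a filter (adjusted p = 0.0117, a fit that called 8.0% of 31298 genes higher and 7.9% lower) and limma-voom on recovered reads (log2 fold change 2.08, adjusted p = 1.45e-05). COL1A2, its partner in the common type I trimer, had 0 reads in the 3 KO libraries, which allows a mean level of up to 0.00528 FPKM, and 2, 4 and 3 reads in WT libraries. Both genotypes thus had type I mRNA almost entirely as the α1 chain.

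COL8A1, a short chain of the hexagonal lattice under endothelium and in the cornea, was lower in every KO library. It was at 0.124, 0.130 and 0.134 FPKM in KO libraries and at 0.572, 0.498 and 0.556 FPKM in WT libraries, from 62 and 256 reads. The KO level was 0.239 of the WT level, with an adjusted p of 0.00525 in limma without a filter and of 1.41e-05 in limma-voom (log2 fold change −2.04). COL8A2, which forms the same lattice, was at 0.273 FPKM in KO and 0.218 FPKM in WT cells and did not pass in limma-voom (adjusted p = 0.462). COL10A1, the short chain of hypertrophic cartilage, had 2 reads in KO and 15 in WT cells (limma-voom log2 fold change −2.60, adjusted p = 0.0408). It did not pass in limma without a filter (adjusted p = 0.145).

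Among the remaining low chains, COL16A1, a minor fibril-associated collagen, was at 1.11, 1.11 and 0.968 FPKM in KO libraries and at 0.555, 0.428 and 0.726 FPKM in WT libraries (limma-voom log2 fold change 0.93, adjusted p = 0.00094; limma without a filter, adjusted p = 0.0644). COL4A5 averaged 0.942 ± 0.109 FPKM in KO and 0.693 ± 0.0617 FPKM in WT cells (SD, n = 3 each; limma-voom adjusted p = 0.0261; limma without a filter, 0.253). COL2A1, the chain of cartilage fibrils, was at 0.315, 0.253 and 0.154 FPKM in KO libraries and at 0.0443, 0.0901 and 0.00902 FPKM in WT libraries, from 82 and 16 reads (limma without a filter, adjusted p = 0.0483; limma-voom 0.00493). All 3 chains had non-overlapping genotypes with the KO libraries on top, as had COL9A2. The KO libraries lay below all WT libraries for COL5A2 and COL10A1. The share of genes at this level without overlap was not computed. COL5A2, COL11A2, COL9A2, COL4A6 and COL6A5 had between 5 and 83 reads per genotype, and none passed in either of these fits. The counts of COL26A1 were 8 reads in KO cells, 7 of them in KO 2, and 0 in WT cells. In limma-voom on the 20463 genes with at least 10 reads, 11 chains in all were higher and 7 lower, against 17.2% and 17.1% of the genes in that fit. The higher chains were the 6 named above with COL4A2, COL4A5, COL16A1, COL1A1 and COL2A1, and the lower ones were the 4 named above with COL5A1, COL8A1 and COL10A1.

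**Figure D4:**
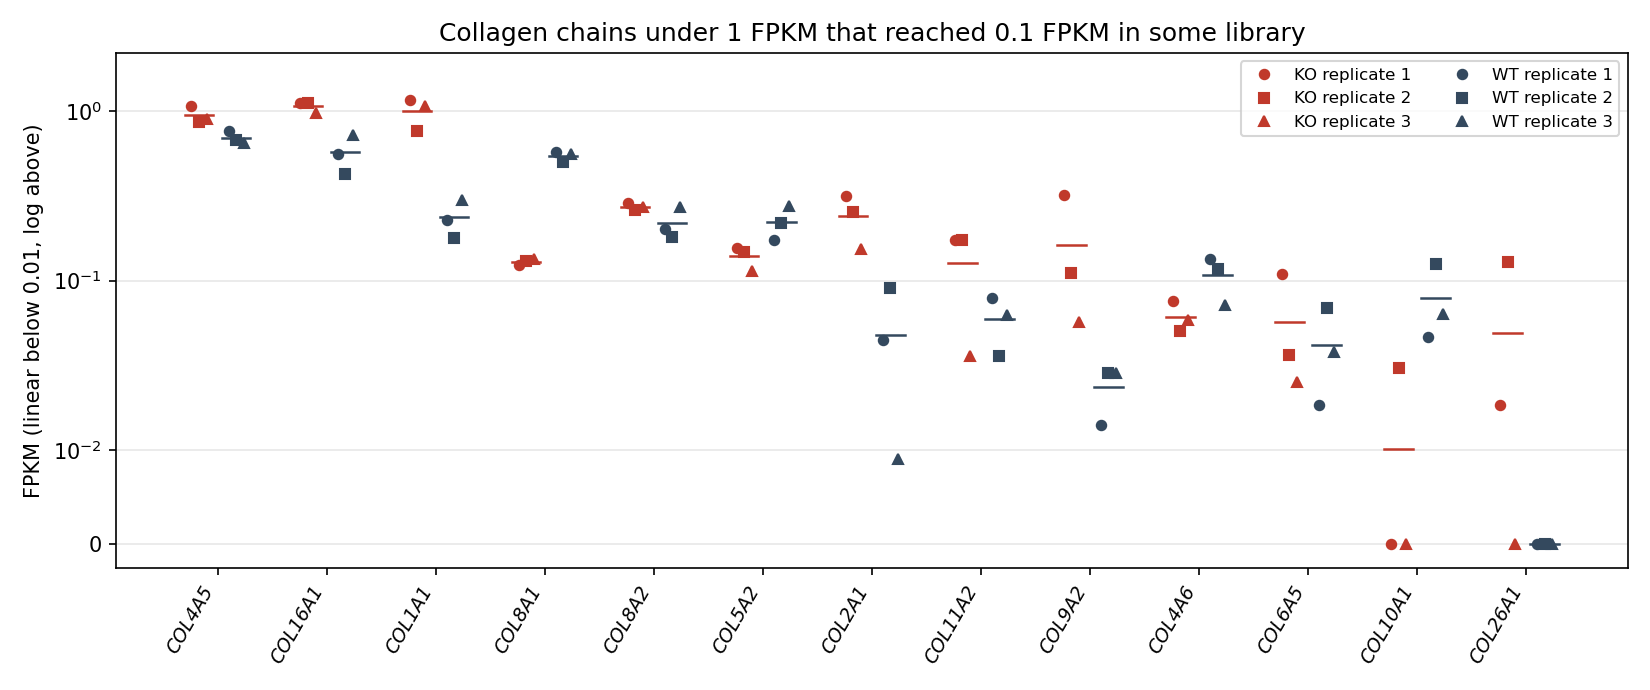
FPKM of the 13 chains under a mean of 1 FPKM that reached 0.1 FPKM in some library (axis linear below 0.01 and logarithmic above), with KO (red) left of WT (dark) and a line at the mean. COL1A1, COL16A1 and COL2A1 lie higher in every KO library, COL8A1 lies lower in every KO library, and the chains to the right rest on a few reads.

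The 18 silent chains were spread over several structural classes. Silent fibrillar chains were COL1A2, COL3A1, COL5A3, COL11A1 and COL24A1. Silent fibril-associated chains were COL9A1, COL9A3, COL14A1, COL19A1, COL20A1 and COL21A1, several of them known from cartilage or from dense connective tissue. The others were COL4A3 and COL4A4 of type IV, COL6A6 of type VI, the transmembrane chains COL23A1 and COL25A1, the multiplexin COL15A1, and COL28A1. COL3A1, the chain of the GPR56 ligand type III collagen, had 1 read in KO and 2 reads in WT cells.

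Silence here is a statement about depth. COL9A1, COL19A1, COL20A1, COL23A1 and COL28A1 had 0 reads in all 6 libraries, which allows a mean level of up to 0.00270 to 0.00788 FPKM (3 reads over the 6 libraries). COL15A1 came closest to the limit of 0.1 FPKM, with 24 reads in KO and 19 in WT cells. The other 12 silent chains had between 1 and 19 reads over all libraries, and none of these passed in limma without a filter. Among them the genotypes did not overlap for COL1A2 only, with 0 reads in KO and 9 in WT cells (adjusted p = 0.455 in that limma fit). In the promoter windows of 13 silent chains with an entry, the median GC content was 66.67% and 6 held GGGCGG, against 65.67% and 8 of 11 among the tested chains.

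The enzymes that modify collagen chains were mostly present, and several were higher in KO cells. The counts of this and the following gene lists stand against 21% of all genes tested called higher and 22.4% called lower. Of 14 genes of chain hydroxylation and glycosylation, 12 were tested, of which 6 rose, 1 fell and 5 missed the threshold, with a median log2 fold change of 0.22. In the fit corrected for GC content and length, 6 were higher and 3 lower. COLGALT1, which adds galactose to hydroxylysine, averaged 82.6 ± 0.954 FPKM in KO and 56.6 ± 1.12 FPKM in WT cells (SD, n = 3 each; log2 fold change 0.54, limma adjusted p = 0.000354). P3H4, a partner of lysyl hydroxylase, averaged 40.1 ± 1.83 FPKM in KO and 28.1 ± 1.84 FPKM in WT cells (limma adjusted p = 0.00145). P4HA2, a catalytic subunit of prolyl 4-hydroxylase, averaged 5.53 ± 0.0989 FPKM in KO and 3.61 ± 0.129 FPKM in WT cells (limma adjusted p = 0.000726). All KO libraries were above all WT libraries for the 3 enzymes.

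Genes of folding and export followed. Of 13 genes, all tested, 1 rose, 2 fell and 10 missed the threshold, with a median log2 fold change of −0.13. The corrected fit called 2 higher and 3 lower. SERPINH1, the collagen chaperone HSP47, was at 25.6, 23.9 and 25.7 FPKM in KO libraries and at 39.6, 39.7 and 40.7 FPKM in WT libraries, a clear separation (log2 fold change −0.65, limma adjusted p = 0.00022). CREB3L1, a transcription factor of the endoplasmic reticulum known to drive procollagen genes, averaged 5.00 ± 0.449 FPKM in KO and 2.75 ± 0.269 FPKM in WT cells (limma adjusted p = 0.00103). TMEM38B, an ion channel of the endoplasmic reticulum, averaged 4.98 ± 0.330 FPKM in KO and 7.78 ± 1.63 FPKM in WT cells (limma adjusted p = 0.0135), and did not pass once GC content and length were corrected for (adjusted p = 0.173).

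Outside the cell, propeptides are cut off and fibrils are crosslinked. Of 11 genes of propeptide removal, 5 were tested, of which 2 rose and 3 missed the threshold. BMP1, the procollagen C-proteinase, averaged 13.6 ± 0.290 FPKM in KO and 8.57 ± 0.617 FPKM in WT cells (limma adjusted p = 0.000524), and its enhancer PCOLCE 1.96 ± 0.238 and 0.576 ± 0.0891 FPKM (limma adjusted p = 0.000638). PCOLCE passed the level filter only through its level in KO cells. ADAMTS2, which removes the N-propeptide and lay below the level filter, was at 0.0802, 0.107 and 0.152 FPKM in KO libraries and at 1.39, 1.52 and 1.56 FPKM in WT libraries. It was picked with its values in view. The crosslinking enzymes went both ways, with 1 higher, 2 lower and 1 not passing of 4 tested among 6. LOX averaged 4.35 ± 0.778 FPKM in KO and 9.59 ± 1.14 FPKM in WT cells (log2 fold change −0.99, limma adjusted p = 0.000896), and LOXL3 8.95 ± 0.594 and 20.6 ± 1.64 FPKM (log2 fold change −1.12, limma adjusted p = 0.000103). LOXL2, known to crosslink type IV collagen, averaged 87.8 ± 2.67 FPKM in KO and 53.4 ± 7.14 FPKM in WT cells (log2 fold change 0.72, limma adjusted p = 0.0014). PXDN, a crosslinking enzyme below the level filter, was at 0.456, 0.253 and 0.278 FPKM in KO libraries and at 1.26, 1.49 and 1.39 FPKM in WT libraries. Like ADAMTS2, PXDN was picked with its values in view.

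Proteins that bind collagen in the matrix were either higher or not expressed at a testable level. Of 13 fibril regulators, 4 were tested and all 4 were higher, but BGN passed the level filter only through its level in KO cells. SPARC averaged 278.4 ± 15.8 FPKM in KO and 182.5 ± 3.21 FPKM in WT cells (limma adjusted p = 0.000541), FN1 80.8 ± 2.57 and 54.8 ± 3.48 FPKM (limma adjusted p = 0.000841), and THBS1 74.5 ± 5.80 and 58.6 ± 1.95 FPKM (limma adjusted p = 0.00886). The other was BGN, whose limma call was lost without KO 2 (adjusted p = 0.0528) or KO 3 (0.0519) and in the fit corrected for GC content and length (0.0794). The small proteoglycans DCN, LUM, FMOD, ASPN and KERA, and POSTN, had 0 reads in all 6 libraries.

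Among 12 collagen receptors, 8 were tested, of which 3 rose, 4 fell and 1 missed the threshold. The discoidin receptors, tyrosine kinases that collagen activates, moved apart: DDR1 averaged 15.7 ± 0.520 FPKM in KO and 8.82 ± 1.14 FPKM in WT cells (log2 fold change 0.77, limma adjusted p = 0.000719), and DDR2 5.69 ± 0.180 and 10.95 ± 0.272 FPKM (log2 fold change −0.84, limma adjusted p = 8.1e-05). The 4 lower receptors include ADGRG1, the targeted gene, and ITGA10, whose limma call was lost without any 1 library other than KO 1 (adjusted p of 0.067 to 0.119).

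Among tested genes of these lists, the collagen-degrading enzymes held the largest changes on the log2(FPKM + 1) scale. Of 10, 6 were tested, of which 2 rose, 3 fell and 1 missed the threshold. Of the 3 lower enzymes, MMP16 did not pass in the corrected fit, where its log2 fold change was −0.042 (limma adjusted p = 0.617). MMP9, a gelatinase that cuts denatured and type IV collagen, was at 81.6, 75.1 and 80.5 FPKM in KO libraries and at 10.4, 10.2 and 10.5 FPKM in WT libraries (log2 fold change 2.82, limma adjusted p = 5.9e-07). MMP1, the interstitial collagenase, was at 0.947, 1.74 and 1.74 FPKM in KO libraries and at 17.2, 20.2 and 15.7 FPKM in WT libraries (log2 fold change −2.93, limma adjusted p = 2.98e-05). MMP3, a stromelysin, was at 0.740, 0.312 and 0.618 FPKM in KO libraries and at 3.78, 4.99 and 3.46 FPKM in WT libraries (log2 fold change −1.70, limma adjusted p = 0.000229), and it passed the level filter only through WT cells. The genotypes were far apart for the 3 enzymes, which cut different collagens. MMP13, an enzyme of this list below the level filter, was at 0.555, 0.492 and 0.404 FPKM in KO libraries. In WT libraries it was at 0.0626, 0.106 and 0.0849 FPKM, with 70 reads in KO and 12 in WT cells. MMP13 too was picked with its values in view, and unlike ADAMTS2 and PXDN it was higher in KO cells. Over all 79 listed genes, 52 were tested, of which 19 rose, 12 fell and 21 missed the threshold, to be read against 21% higher and 22.4% lower among all genes tested.

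**Figure D5:**
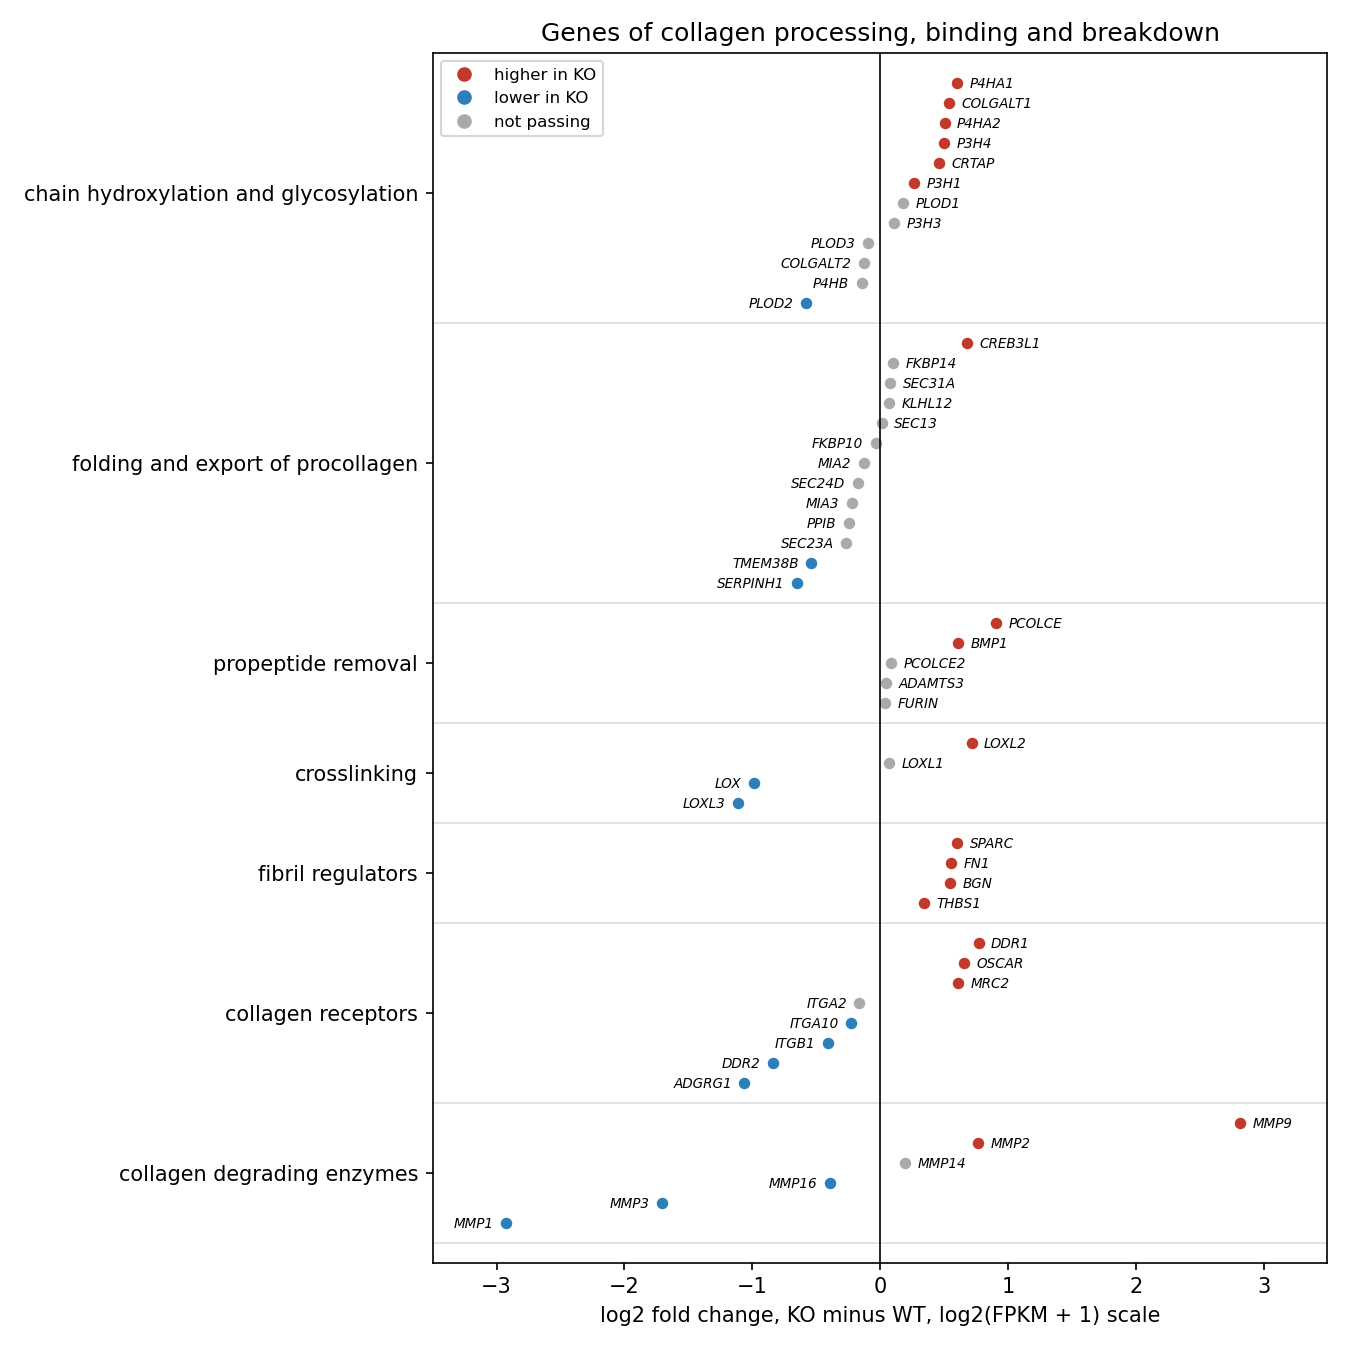
Log2 fold change of KO minus WT on the log2(FPKM + 1) scale for the 52 tested genes of collagen processing, binding and breakdown, 1 point per gene grouped by list, with red for higher, blue for lower and grey for not passing. MMP9 (2.82) and MMP1 (−2.93) mark the ends, and the 4 tested fibril regulators all lie to the right of 0.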

How the data were processed

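Total RNA from 3 KO and 3 WT samples was sequenced with a SMARTER mRNA-Seq kit, per the labels' protocols. The authors deposited 1 table of FPKM per gene and library. Aligner, counting tool and strand setting: not given in the sources used here. Mouse builds (GRCm38, mm10) stand in the submitters' processing notes, but starts and ends of 58735 of 58735 genes equal the human GENCODE release 29 (GRCh38), and the deposited length equals that of the merged exons. FPKM times length gave whole reads within 0.02 for 100.0% of values, with 16410352 to 17276269 reads per library. Floors of 3 reads cover counting error only. Counts of libraries of 1 genotype were not alike within sampling noise (chi-square 4.92 to 16.5 times its degrees of freedom). That can also arise in library preparation and does not show separate cultures, so n counts 3 libraries and not 3 cultures.

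The test was limma 3.58.1 in R 4.3.3 (lmFit, eBayes with trend) on log2(FPKM + 1) for 12000 genes with a mean of at least 1 FPKM, genotype only, two-sided, Benjamini-Hochberg adjusted over all genes tested, threshold 0.05. It was tested on simulated data. A pseudocount of 1 understates fold changes of low genes; ratios of means have none. Alternatives were a pseudocount of 0.1, no filter, a filter of 5 FPKM, limma-voom on recovered reads, quantile normalization, a spline correction for GC and length, a replicate block with and without it, and each library left out. Limma-voom on genes with at least 10 reads and principal transcript lengths were added after seeing the data. Deposited values were used with their own scaling, which differed from median-ratio size factors by ratios of 0.9968 to 1.0028.

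Chains and partner lists were chosen with earlier results of these data known. All 44 chains are named. Of each partner list, up to 3 called genes with the smallest adjusted p are named, and ADGRG1 always. Of the listed markers, 1 is not reported here. Promoter windows came from RefSeq (GRCh38.p14), with entries for 32 of 44 chains.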

Additional observations from a re-analysis of the deposited data

How the results depend on the processing

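Of the 6 chains called higher, COL6A2, COL6A1, COL4A1, COL13A1 and COL22A1 were called under every alternative that tested them. The count of higher chains stayed between 4 and 7, apart from 11 in limma-voom on genes with at least 10 reads. The lower calls were less stable. Against 4 lower chains, 2 were called without a filter, 1 with the filter at 5 FPKM, 0 with a replicate block, 7 in limma-voom with at least 10 reads, and 0 to 5 when 1 library was left out, with 0 without KO 3 or WT 1 and 5 without WT 2. The filter at 5 FPKM removes low chains by construction. Silent chains numbered 18 under 0.1 FPKM, 17 under 0.05 FPKM and 25 under 0.3 FPKM, and 5 had no reads at all. The summed collagen ratio stayed between 1.191 and 1.428 with other size factors, without the highest chain and with each library left out. COL6A3 over COL6A1 in KO relative to WT stayed between 0.411 and 0.446 with group means and with each library left out. Neither ratio was computed with the GC and length correction, so these ranges do not cover it. No fold change of a tested chain changed sign. The ratio of COL6A3 to COL6A1 in KO cells was below 1 per merged exon length (0.956) and above 1 per principal transcript length (1.38).

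Deviations of same-numbered libraries from the mean of their genotype correlated at −0.07, −0.18 and −0.35. Those of differently numbered libraries correlated at −0.21 to 0.37. The deviations are centred within each genotype and hold the GC trend, so these values cannot decide whether the shared numbers mark pairs. The replicate block lowered the calls over all genes to 1900 higher and 1966 lower, against 2525 and 2682, and left 5 chains higher and 0 lower (COL6A3, adjusted p = 0.0598; COL7A1, 0.0579). With the GC and length correction, the block left 5 higher and 5 lower, and the limma calls of COL7A1 (adjusted p = 0.0901) and COL12A1 (0.0622) were lost.

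Having 3 libraries per genotype, a GC trend of opposite sign in KO and WT libraries, an unknown number of clones and no strand setting limits these results. Whether that trend comes from the libraries or from the genotype cannot be told apart. Chains with few reads are limited by depth.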
